A study of Mus musculus with 22 samples.

Results

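The comparison of ApoE knockout with wild-type aortic intima that had not been incubated was taken from the array titles: 4 arrays of C57BL/6 mice lacking ApoE and 6 arrays of wild-type C57BL/6 mice, 10 of the 22 arrays in the series. Mice of both groups were 4 weeks old and on chow. The labels call the knockout mice hyperlipidemic and not yet lesioned, and the wild-type mice normal-lipidemic. No agent was given to either group. The intima was scraped from the opened aorta and its RNA was amplified before hybridisation, so the arrays measured a small scraped layer and not purified cells. The other 12 arrays held wild-type aortas kept for 4 h in medium alone or with lipopolysaccharide (LPS, 4 ng/mL), oxidised low-density lipoprotein (oxLDL, 50 µg/mL) or oxidised phospholipid (oxPAPC, 50 µg/mL), with 3 arrays each, and were used here only to set the values of the genes that differed beside them. How many animals went into an array is not stated, so p-values measure the spread between these arrays.

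ApoE is the apolipoprotein that lets the liver take up remnant lipoproteins, and mice without it carry high plasma cholesterol and later develop plaques in the aorta. Endothelial cells line the vessel and sit on a basement membrane of laminins and collagens, with smooth muscle beneath. When cells take up excess cholesterol, the LXR nuclear receptors turn on genes of cholesterol export, while the SREBP factors that drive cholesterol synthesis are held back.

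Levels are log2 values after the RMA summary, on which a difference of 1 is a doubling, and each gene is represented by 1 probe set. Differences are knockout minus wild type throughout, and values on the 4 knockout arrays are given in the order of replicates 3, 4, 5 and 6. Of 11807 genes with a probe set, 7264 passed the filter on low levels. In limma's moderated test 31 of these 7264 genes differed at an adjusted p under 0.05, which is 0.427%. Of these, 10 genes rose in the knockout (0.138% of the genes tested) and 21 fell (0.289%). On all 31 the highest array of one group lay below the lowest array of the other. Such a gap was found for 376 of the 7264 genes, or 5.18%, with 141 higher in the knockout (1.94%) and 235 lower (3.24%). At an unadjusted p under 0.05 there were 1328 genes (18.3%), of which 556 were higher (7.65%) and 772 lower (10.6%). Over all genes tested the median difference was -0.02, and the middle 90% of genes lay between -0.44 and 0.43.

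The promoter of Nectin2, the gene with the smallest p-value, is shown with that of Camk1d, which holds a sterol regulatory element, and that of Idi1, the called gene of sterol synthesis. The sequences are RefSeq's, on build GRCm38.p6, and cover 300 bases from upstream of each gene's start to just past it. Capitals mark every match to a searched motif.
Nectin2, chr7:19749524-19749823, minus strand: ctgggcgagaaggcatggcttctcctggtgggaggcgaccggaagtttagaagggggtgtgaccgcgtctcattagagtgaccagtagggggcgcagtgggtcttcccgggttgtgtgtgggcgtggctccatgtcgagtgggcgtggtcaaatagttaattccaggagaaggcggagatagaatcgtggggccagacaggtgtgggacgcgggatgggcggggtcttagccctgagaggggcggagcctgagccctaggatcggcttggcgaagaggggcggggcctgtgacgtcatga
Camk1d, chr2:5675997-5676296, minus strand: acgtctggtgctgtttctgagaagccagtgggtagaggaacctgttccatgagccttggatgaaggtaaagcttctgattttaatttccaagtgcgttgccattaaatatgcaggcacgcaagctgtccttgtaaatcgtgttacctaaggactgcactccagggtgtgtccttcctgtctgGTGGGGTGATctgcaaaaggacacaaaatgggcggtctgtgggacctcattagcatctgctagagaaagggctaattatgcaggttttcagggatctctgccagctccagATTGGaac
Idi1, chr13:8885356-8885655, plus strand: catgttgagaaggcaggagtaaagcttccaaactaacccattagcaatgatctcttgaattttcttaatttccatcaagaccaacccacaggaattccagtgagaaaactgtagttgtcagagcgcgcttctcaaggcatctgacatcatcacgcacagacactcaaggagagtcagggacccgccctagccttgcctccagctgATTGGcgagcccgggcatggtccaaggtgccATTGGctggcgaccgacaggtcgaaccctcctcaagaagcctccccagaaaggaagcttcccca

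The Nectin2 window was 62.7% G and C with 20 CpG dinucleotides, against medians of 52.7% and 7 over all 32851 promoters in the table, and it held none of the searched motifs. The motifs were searched on both strands and a CArG box can begin with the letters CCAAT. The LXR element, a direct repeat of AGGTCA with 4 free bases between the copies, was in 5 of the 32851 promoters (0.0152%) and in none of the promoters of the 25 called genes with an entry there. The sterol regulatory element, whose letters are those of the longer run of capitals in Camk1d read on the opposite strand, was in 30 promoters (0.0913%) and, among called genes, in that of Camk1d, where that run begins 68 bases before the start. The CCAAT box was in 12289 promoters (37.4%) and in those of 15 of the 25 called genes, Idi1 among them with 2 matches and Camk1d with 1, its shorter run. These 25 genes have 32 promoters, so a count of genes is not on the same scale as a share of promoters. The CArG box, the serum response factor element, was in 535 promoters (1.63%) and, among called genes, in that of Ppbp. These matches describe letters in a window and do not show binding.

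The Apoe probe set lay below the level filter and its values followed the labels. It read 3.04, 3.04, 3.23 and 3.14 on the knockout arrays, against a lowest of 3.78, a median of 4.14 and a highest of 4.35 on the wild-type arrays. The groups did not overlap, and the difference of -0.997 had an exact permutation p of 0.00476 (two-sided), the smallest that the 210 splits of the 10 arrays allow.

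Nectin2, the nearest gene with a probe set on one side of Apoe on chromosome 7, encodes a nectin, an adhesion protein of cell junctions. It read 6.77, 6.60, 6.90 and 6.66 in the knockout intima, against a lowest of 4.56, a median of 4.75 and a highest of 4.85 in the wild type. The knockout arrays were all far above the wild-type ones, and Nectin2 rose 4.04-fold (log2 difference 2.01 ± 0.10 SE, limma adjusted p = 1.22e-06). Its wild-type mean lay 0.06 above the 40th percentile of the arrays, the level of the filter, with 4 of 6 wild-type arrays above it. The size of the rise is therefore against a level near the filter. A second Nectin2 probe set, below the level filter, was also higher, at 4.28 in the knockout against 3.72 in the wild type. The other near neighbours with a probe set were measured too. Bcam, an adhesion protein that binds laminin, averaged 6.58 ± 0.17 (SD, n = 4) in the knockout and 6.09 ± 0.29 (SD, n = 6) in the wild type and was not called (log2 difference 0.49, limma adjusted p = 0.144). Apoc1, Apoc2, Apoc4 and Cblc were below the filter, with differences between -0.09 and 0.14. Whether the rise of Nectin2 belongs to the altered locus, to sequence flanking it that came with the knockout and could differ under the probes, or to the hyperlipidemia cannot be told apart in this design, and the same holds for the difference of Bcam.

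Among 10 tested LXR targets and genes of cholesterol export 1 rose, and the median difference of the list was 0.19 beside -0.02 over all genes. The gene that rose was Abcg1, the transporter that moves cholesterol to high-density lipoprotein. It read 7.63, 8.16, 8.03 and 8.09 in the knockout, against a lowest of 6.01, a median of 6.77 and a highest of 7.23 in the wild type. Its groups did not overlap and the rise was 2.49-fold (log2 difference 1.32 ± 0.21, limma adjusted p = 0.0393). Mylip, the ubiquitin ligase that removes the LDL receptor and a textbook LXR target, averaged 7.76 in the knockout and 7.16 in the wild type, and its difference of 0.60 ± 0.18 missed the threshold (limma adjusted p = 0.140). Scd1, a desaturase of fatty acid synthesis, differed by 0.29, and Smpdl3a, a phosphodiesterase, by -0.27, neither past the threshold. The Smpdl3a groups did not overlap either, at 8.30 to 8.51 in the knockout and 8.54 to 8.80 in the wild type. Such a gap on the lower side was found for 3.24% of all genes tested. On the list 2 genes were at an unadjusted p under 0.05 on the higher side and 1 on the lower, beside 7.65% and 10.6% of all genes tested.

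Of 9 tested genes of sterol synthesis and LDL uptake 1 fell, beside 0.289% of all genes tested. Idi1, an isomerase of the pathway from mevalonate to cholesterol, read 6.79, 6.92, 7.10 and 6.75 in the knockout, against a lowest of 7.37, a median of 7.56 and a highest of 7.76 in the wild type. The groups were apart and the fall was 1.60-fold (log2 difference -0.67 ± 0.11, limma adjusted p = 0.0417). A second Idi1 probe set, also tested, differed by -0.46 and did not pass (limma adjusted p = 0.108 among all probe sets). The list had 4 genes higher, 5 lower and a median difference of -0.07. At an unadjusted p under 0.05, none of the 9 was higher and 1 was lower, beside 7.65% and 10.6% of all genes tested. Mvk, a kinase of the same pathway, differed by 0.15 and Ebp, an isomerase later in it, by -0.35, and neither passed the test. Sqle, which makes squalene epoxide, was below the filter at a mean of 3.82 in the knockout and 4.22 in the wild type.

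The lists of lipoprotein receptors and of fatty acid use held no called gene. None of 12 tested lipoprotein and scavenger receptors passed. Stab1, a scavenger receptor of endothelium, was at 9.04 in the knockout and 9.41 in the wild type (log2 difference -0.38, limma adjusted p = 0.155). Cavin1 and Lrp1 of the same list differed by 0.49 and 0.40, at unadjusted p-values under 0.05 only. Cd36, the fatty acid and oxLDL receptor, spanned 4.93 to 6.71 over the knockout arrays and 3.96 to 7.00 over the wild-type arrays, so its groups overlapped. None of 17 tested genes of fatty acid uptake, storage and oxidation passed. Acaca, which makes malonyl-CoA, differed by 0.76 ± 0.28 and Slc27a1, a fatty acid transporter, by 0.46 ± 0.16, both at unadjusted p-values under 0.05 only. Outside these lists, Cyp4b1, a cytochrome P450 of fatty acid hydroxylation, rose 1.64-fold, reading 7.78, 8.14, 8.18 and 7.91 in the knockout against 6.98 to 7.52 in the wild type (limma adjusted p = 0.0417).

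**Figure D1:**
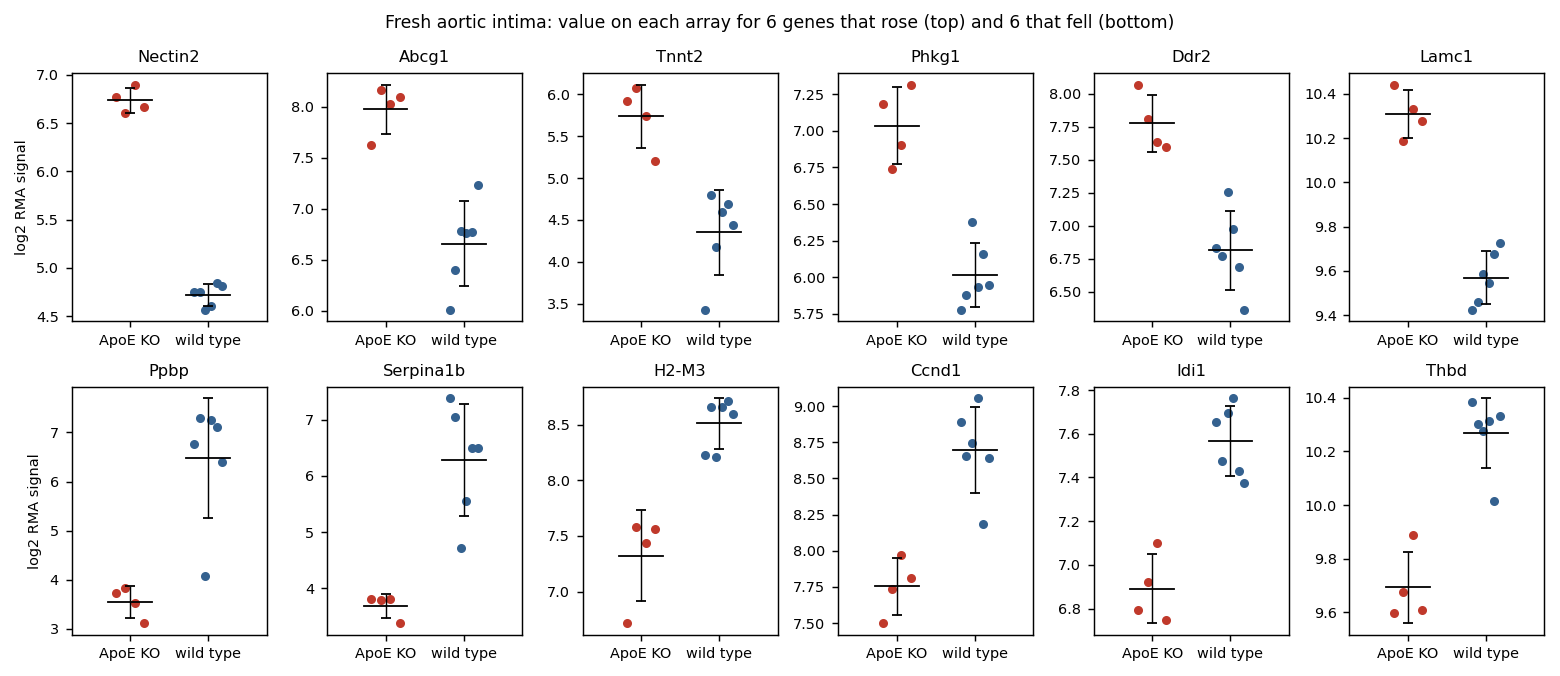
Log2 RMA signal (vertical axes, which differ between panels and do not start at 0) of 12 called genes on the 4 ApoE knockout arrays (left in each panel) and the 6 wild-type arrays (right). Points are arrays, the long bar is the group mean and the whiskers are 1 SD; the 2 groups do not overlap in any panel, and the lowest wild-type point for Ppbp (4.08) is replicate 12.

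Each list of the matrix beneath the endothelium and of attachment to it held at most 1 called gene, and those called were higher. Over all genes tested 0.138% were called higher. Lamc1, the laminin gamma chain shared by most basement membrane laminins, read 10.44, 10.19, 10.33 and 10.28 in the knockout, against a lowest of 9.42, a median of 9.57 and a highest of 9.73 in the wild type. It was 1.67-fold higher (log2 difference 0.74 ± 0.10, limma adjusted p = 0.0259). It was the 1 called gene of 17 tested laminins and basement membrane genes, whose median difference was 0.27, and a second Lamc1 probe set was higher by 0.36 without passing. At an unadjusted p under 0.05, 4 of the 17 were higher and 1 lower, beside 7.65% and 10.6% of all genes tested. In the same list Lamb1, a laminin beta chain, averaged 6.73 in the knockout and 7.18 in the wild type, a difference that did not pass (-0.45, limma adjusted p = 0.433), and Agrn, the proteoglycan agrin, differed by -0.35.

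Ddr2, a receptor kinase activated by fibrillar collagen, read 8.07, 7.81, 7.63 and 7.59 in the knockout, against a lowest of 6.36, a median of 6.81 and a highest of 7.26 in the wild type. It rose 1.95-fold (log2 difference 0.96 ± 0.16, limma adjusted p = 0.0417), the 1 called gene among 17 tested collagens and associated genes (list median 0.24, with 15 higher and 2 lower). Of these 17, 5 were higher and 1 lower at an unadjusted p under 0.05, beside 7.65% and 10.6% of all genes tested. Tln1, talin, which links integrins to actin, read 8.98, 9.06, 8.90 and 8.91 in the knockout, against 8.12 to 8.64 in the wild type. Its rise was 1.50-fold (log2 difference 0.59 ± 0.11, limma adjusted p = 0.0474), and it was the 1 called gene of 16 integrins and adhesion genes. At an unadjusted p under 0.05, 6 of the 16 were higher and none lower, beside 7.65% and 10.6% of all genes tested. Vcl, vinculin, at 0.41 and Ilk, the integrin-linked kinase, at 0.33 were among those 6. None of 21 tested genes of the elastic matrix passed, and Eln, elastin, spanned 12.18 to 12.29 in the knockout and 12.10 to 12.38 in the wild type. Col6a3, a chain of type VI collagen, differed by 0.88 ± 0.23 (limma adjusted p = 0.0991).

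Smooth muscle markers had positive differences beside these matrix genes. All 17 tested markers had a positive difference, the median was 0.46 and none was called. At an unadjusted p under 0.05 were 11 of these markers, beside 7.65% of all genes tested on the higher side. The mean level of the markers was 9.57, 9.56, 9.39 and 9.52 on the knockout arrays. On the wild-type arrays it was 8.84, 9.03, 9.59, 8.74, 9.25 and 8.92 for replicates 7, 8, 12, 13, 14 and 15. Wild-type replicate 12 reached the knockout levels, and it held the highest wild-type value for 15 of the 17 markers. Cnn1, calponin of the contractile apparatus, was at 8.86 to 9.06 in the knockout and at 7.60 to 8.39 in the wild type apart from 9.20 on replicate 12. Myl9, a myosin light chain, differed by 0.56 ± 0.15, Synpo2, an actin-bundling protein, by 0.84 ± 0.26, and Myh11, smooth muscle myosin, by 0.30 ± 0.11. More smooth muscle cells in the scrape and more of these RNAs per cell cannot be told apart in bulk RNA, and their part in the results was not tested. Apart from wild-type replicate 12, every wild-type array had a lower marker mean than every knockout array. The fit that follows therefore cannot separate the markers from genotype, and its values are given as a description.

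With the mean of the 17 markers as a covariate, all 31 genes kept their sign, and the fitted difference was between 56.3% (Ppbp) and 115% (Skil) of the original, with a median of 92.4%. The standard errors grew by a median of 1.43 times. Nectin2 alone still passed (2.07 ± 0.14, limma adjusted p = 0.000138). Lamc1 was at 0.69 ± 0.14 and Abcg1 at 1.22 ± 0.30 in that fit, while Phkg1 moved to 0.73 and Ddr2 to 0.74. The medians of the matrix lists were lower in that fit, at 0.02 for laminins and basement membrane (0.27 without the covariate), 0.05 for integrins and adhesion (0.19), 0.17 for collagens (0.24) and -0.11 for the elastic matrix (0.12). Of the 43 lists 11 had a median of the other sign with the covariate.

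**Figure D2:**
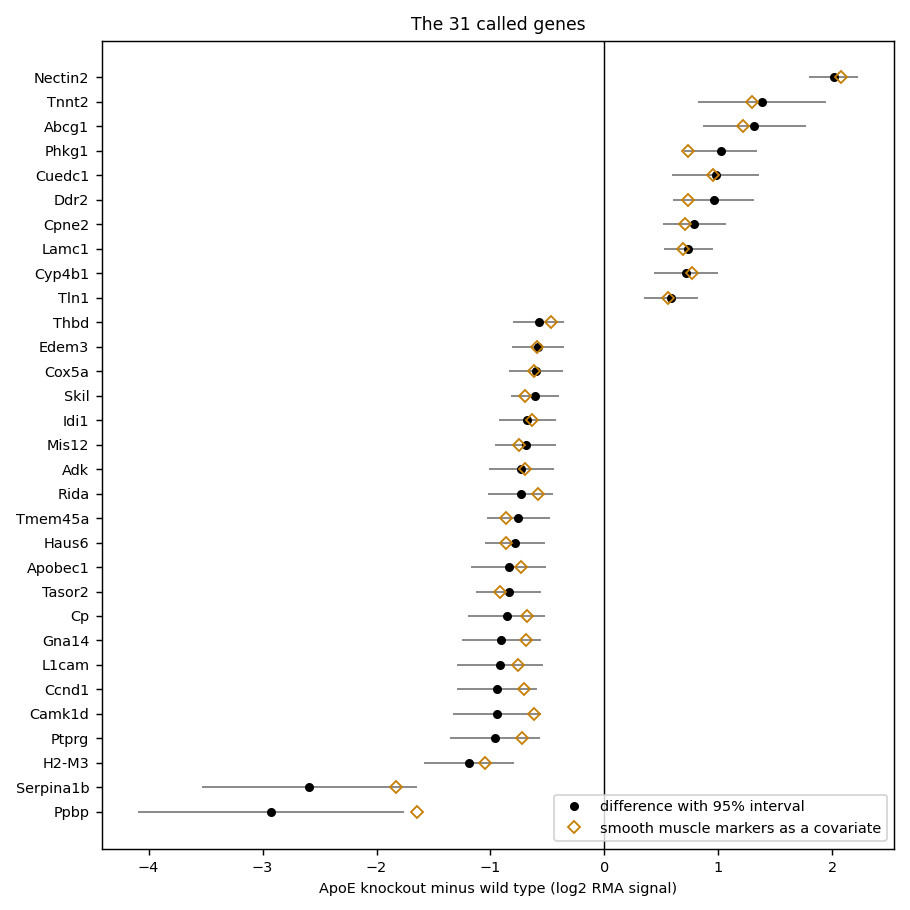
Difference between ApoE knockout and wild type (log2 RMA signal, horizontal axis) for the 31 called genes, with its 95% confidence interval (black), and the same difference when the mean of 17 smooth muscle markers is added as a covariate (open diamonds). All diamonds lie on the same side of 0 as the black points, and those of Ppbp and Serpina1b moved most toward 0.

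Some genes that rose are known from muscle. Tnnt2, cardiac troponin T, read 5.93, 6.08, 5.74 and 5.21 in the knockout, against a lowest of 3.42, a median of 4.52 and a highest of 4.80 in the wild type. It was 2.61-fold higher (log2 difference 1.39 ± 0.26, limma adjusted p = 0.0474), and its second probe set was higher by 1.87 (adjusted p = 0.0341 among all probe sets, limma). Its wild-type mean lay 0.31 below the 40th percentile of the arrays, with 2 of 6 wild-type and 4 of 4 knockout arrays above it, so the size of the rise is against a level below the filter. It was the 1 called gene of 9 tested striated and cardiac muscle genes, whose median difference was 0.05. Among the 9, 2 were higher and none lower at an unadjusted p under 0.05, beside 7.65% and 10.6% of all genes tested. Actc1, cardiac actin, was below the filter, at 3.15 to 3.72 in the knockout and up to 6.63 on wild-type replicate 12 and 6.50 on replicate 14. Phkg1, the catalytic subunit of muscle phosphorylase kinase, which starts glycogen breakdown, read 7.18, 6.74, 6.90 and 7.32 in the knockout, against 5.78 to 6.38 in the wild type. Phkg1 rose 2.03-fold (limma adjusted p = 0.0393), and its second probe set was higher by 0.78. It was the 1 called gene of 24 tested genes of glycolysis and hypoxia (median 0.12). Among the 24, 5 were higher and 3 lower at an unadjusted p under 0.05, beside the same shares of all genes.

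The remaining 2 genes that rose were Cuedc1 and Cpne2. Cpne2, a copine that binds phospholipid in the presence of calcium, read 7.40, 7.04, 7.20 and 7.49 in the knockout, against 6.21 to 6.66 in the wild type (log2 difference 0.79 ± 0.13, limma adjusted p = 0.0414). Cuedc1, a protein with a ubiquitin-binding CUE domain, read 6.74, 6.73, 6.74 and 6.49 in the knockout, against 5.35 to 6.28 in the wild type (log2 difference 0.98 ± 0.17, limma adjusted p = 0.0417). Its other 2 probe sets differed by 0.00 and 0.31 and did not pass, so the probe sets of Cuedc1 disagree in size.

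The 2 largest falls were in genes made mainly by other cells than endothelium. Ppbp, a platelet chemokine stored in granules, read 3.74, 3.84, 3.53 and 3.11 in the knockout, against a lowest of 4.08, a median of 6.93 and a highest of 7.30 in the wild type. It was 7.61-fold lower (log2 difference -2.93 ± 0.53, limma adjusted p = 0.0427). Wild-type replicate 12, at 4.08, lay close to the knockout arrays, and the other wild-type arrays were at 6.40 or above. Serpina1b, an alpha-1 antitrypsin gene of the liver, read 3.81, 3.78, 3.80 and 3.37 in the knockout, against a lowest of 4.71, a median of 6.49 and a highest of 7.39 in the wild type. It was 6.02-fold lower (log2 difference -2.59 ± 0.43, limma adjusted p = 0.0417), and its second probe set, also called among all probe sets, differed by -2.49. Serpina1b belongs to a family of near-identical genes whose transcripts the probes may share. The knockout means of both genes were below the 40th percentile of their arrays, with 0 of 4 knockout arrays above it, so both passed the filter through the wild type and the sizes of these falls are against a level below it.

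All 9 tested platelet and erythroid genes had a negative difference, with a median of -0.44, and Ppbp was called. Counting it, 5 of the 9 were at an unadjusted p under 0.05, beside 10.6% of all genes tested on the lower side. The mean over all 16 genes of that list was 5.44, 5.22, 5.29 and 5.56 on the knockout arrays. It was 6.03, 5.95, 5.36, 6.11, 5.99 and 5.71 on the wild-type arrays, replicate 12 being the one within the knockout range. Pf4, another platelet chemokine, averaged 4.75 in the knockout and 6.08 in the wild type (log2 difference -1.33 ± 0.38, limma adjusted p = 0.124). Slc4a1, the anion exchanger of red cells, differed by -1.08 ± 0.29 (limma adjusted p = 0.110), and Itga2b, an integrin chain of platelets, by -0.20. Of 5 tested hepatocyte and plasma protein genes Serpina1b alone was called, and the list's median was 0.09. In this list 1 gene was higher and 1 lower at an unadjusted p under 0.05, beside 7.65% and 10.6% of all genes tested. The part of blood cells in the scrape in these differences was not tested.

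Genes of antigen presentation had mostly negative differences, with 1 call. H2-M3, a class I molecule that presents formylated peptides, read 6.71, 7.58, 7.43 and 7.56 in the knockout, against a lowest of 8.21, a median of 8.63 and a highest of 8.72 in the wild type. Its fall was 2.28-fold (log2 difference -1.19 ± 0.18, limma adjusted p = 0.0393). All 13 tested genes of class I presentation had a negative difference, with a median of -0.33. At an unadjusted p under 0.05 were 4 of the 13, beside 10.6% of all genes tested on the lower side. H2-K1, a classical class I chain, differed by -0.50 ± 0.16 and Tapbp, tapasin, by -0.28 ± 0.10. In class II presentation 7 of 8 tested genes were lower, the median was -0.40 and none was called. H2-Ab1, a class II beta chain, read 4.85, 5.33, 5.53 and 5.00 in the knockout, against a lowest of 5.66, a median of 6.94 and a highest of 8.31 in the wild type, and its difference of -1.78 ± 0.41 missed the threshold (limma adjusted p = 0.0828).

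Of 14 tested interferon-response genes 13 were lower, with a median of -0.39 and none called. At an unadjusted p under 0.05 were 3 of the 14, beside 10.6% of all genes tested on the lower side. Ifit1, an antiviral RNA-binding protein, differed by -0.86 ± 0.32 and Gbp2, a guanylate-binding protein, by -0.87 ± 0.40. One wild-type array stood above the others here: replicate 14 held the highest wild-type value for 12 of the 14 interferon genes, 12 of the 13 class I genes and 7 of the 8 class II genes. Replicate 12 held the lowest wild-type value for 9, 10 and 5 of the same genes. The medians were -0.29 for the interferon list, -0.24 for class I and -0.23 for class II without replicate 14, and -0.45, -0.43 and -0.58 without replicate 12. The class II median was also -0.20 without knockout replicate 3 and -0.62 without knockout replicate 5. Ptprc, the pan-leukocyte phosphatase CD45, was at 4.02, 4.38, 6.05 and 6.02 in the knockout, against 6.01 to 6.85 in the wild type, so the knockout arrays split. Among 12 tested macrophage markers none was called and the median was -0.09. Their mean level over all 20 markers was 4.63, 4.60, 5.17 and 5.08 on the knockout arrays and 4.75 to 5.34 on the wild-type arrays. The part of leukocyte number in these values was not tested.

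**Figure D3:**
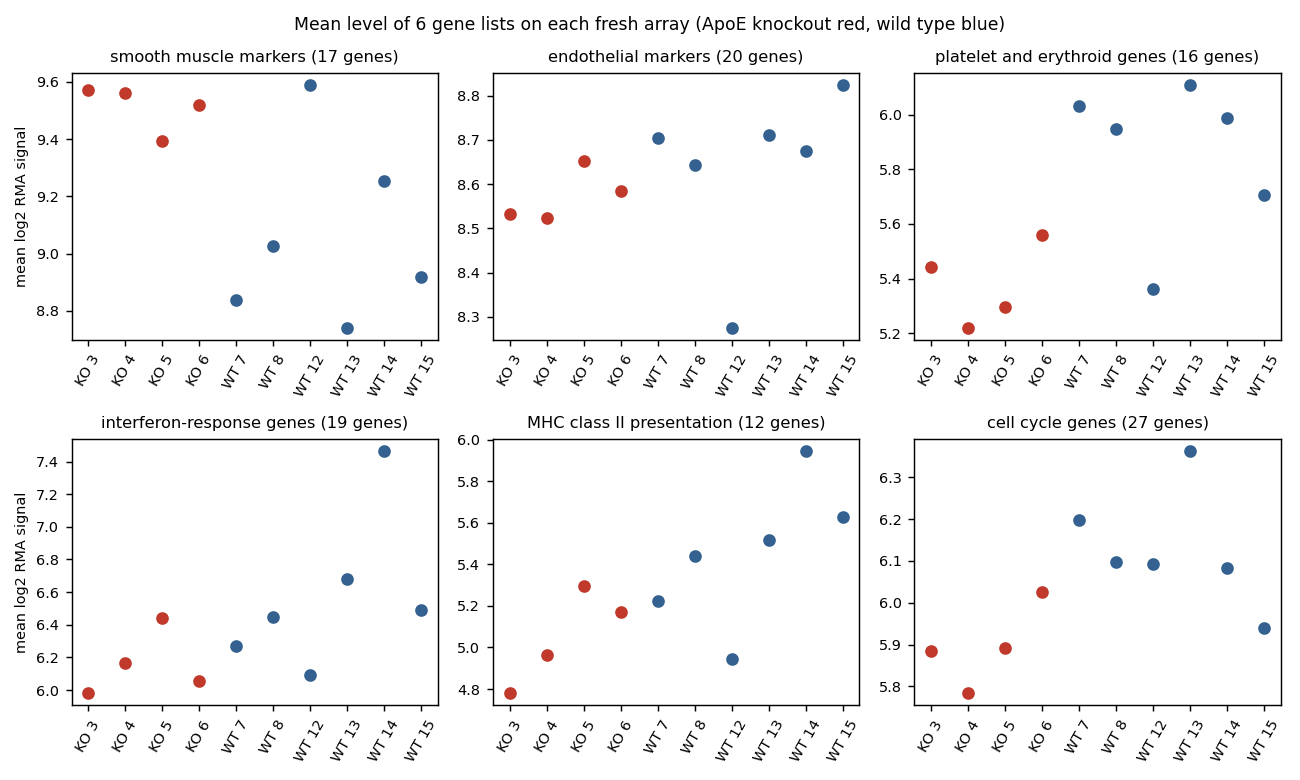
Mean log2 RMA signal (vertical axes, which do not start at 0) over all genes with a probe set in 6 gene lists, on each ApoE knockout array (red, left) and each wild-type array (blue, right). Wild-type replicate 12 lies with the knockout arrays for smooth muscle markers and for platelet and erythroid genes and is lowest for endothelial markers (8.28), and wild-type replicate 14 is highest for the interferon (7.47) and class II lists (5.95).

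The mean level over 20 endothelial markers was 8.52 to 8.65 on the knockout arrays and 8.28 to 8.82 on the wild-type arrays. Levels differed within the list, and Kdr spanned 5.60 to 6.43 in the knockout and 4.87 to 6.83 in the wild type. Pecam1, an adhesion protein of endothelial junctions, was at 11.63 to 11.79 in the knockout and 11.47 to 11.86 in the wild type. None of 19 tested endothelial markers was called, and their median difference was -0.08. Sox17, a transcription factor of arterial endothelium, differed by -0.60 ± 0.15 (limma adjusted p = 0.0950) and Icam2, an adhesion molecule of resting endothelium, by -0.62 ± 0.18 (limma adjusted p = 0.131). Wild-type replicate 12 held the lowest wild-type value for 15 of the 19 markers, and Cdh5, VE-cadherin, was at 8.67 on it and at 9.41 to 9.61 on the other wild-type arrays.

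Of 17 tested flow-related and nitric oxide genes, and likewise of 14 tested genes of coagulation, fibrinolysis and platelet inhibition, Thbd alone was called. The first list had 3 genes higher and 2 lower at an unadjusted p under 0.05, and the second none higher and 2 lower. Over all genes tested these shares were 7.65% and 10.6%. Thbd is thrombomodulin, the endothelial receptor that turns thrombin into an anticoagulant. It read 9.60, 9.68, 9.89 and 9.61 in the knockout, against a lowest of 10.02, a median of 10.31 and a highest of 10.38 in the wild type. The fall was 1.49-fold (log2 difference -0.58 ± 0.10, limma adjusted p = 0.0417). Its close partner Procr, the endothelial protein C receptor, differed by -0.01 with a 95% interval of -0.22 to 0.20. Klf2, the flow-induced factor that drives Thbd in endothelium, differed by -0.02 with a wide interval of -0.82 to 0.78. Klf4 differed by -0.10 (interval -0.45 to 0.26), and Nos3, endothelial nitric oxide synthase, by -0.02 (interval -0.48 to 0.45). Edn1, the vasoconstrictor endothelin, differed by -0.58 ± 0.23 and Gucy1b1, a subunit of the nitric oxide receptor, by 0.94 ± 0.29, both only at an unadjusted p under 0.05.

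Of 17 tested adhesion molecules that act in leukocyte recruitment Nectin2 rose and L1cam fell, and the list's median was -0.18. Over all genes tested 0.427% were called. At an unadjusted p under 0.05, 2 of the 17 were higher and 6 lower, beside 7.65% and 10.6% of all genes tested. L1cam, a cell adhesion protein best known from nerve, read 4.91, 5.43, 5.33 and 5.95 in the knockout, against 6.05 to 6.52 in the wild type (log2 difference -0.92 ± 0.17, limma adjusted p = 0.0483). A second L1cam probe set, below the level filter, was at 4.46 in the knockout and 4.38 in the wild type, so its difference of 0.08 went the other way. Vcam1, which binds monocytes, read 7.83, 8.65, 8.55 and 8.33 in the knockout, against a lowest of 8.63, a median of 8.88 and a highest of 9.23 in the wild type, a difference of -0.60 ± 0.17 that did not pass (limma adjusted p = 0.127). Icam1 differed by -0.32 ± 0.11 (limma adjusted p = 0.170) and Sele, E-selectin, by -0.22 with an interval of -1.06 to 0.63. Among 9 tested cytokines and chemokines Ppbp alone was called. There 1 was higher and 3 were lower at an unadjusted p under 0.05, beside 7.65% and 10.6% of all genes tested. Cxcl1, a neutrophil chemokine, read 7.37, 6.67, 7.52 and 7.14 in the knockout against 7.53 to 8.81 in the wild type, a difference of -0.96 ± 0.26 (limma adjusted p = 0.104). Ccl2 and Il6 were below the level filter. None of 9 tested NF-kB subunits and feedback genes was called.

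**Figure D4:**
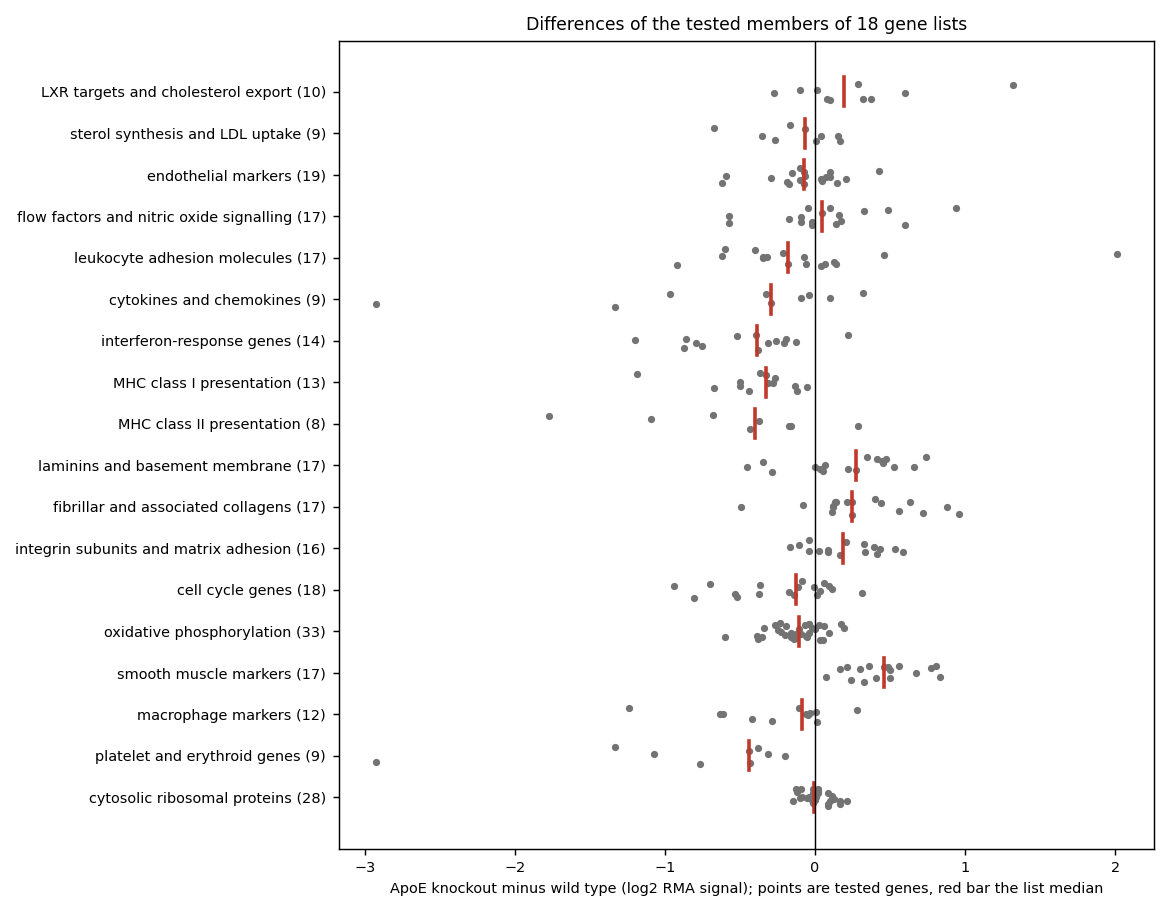
Difference between ApoE knockout and wild type (log2 RMA signal, horizontal axis) for the tested members of 18 gene lists (grey points, with the number tested beside each name) and the list median (red bars). The median of the smooth muscle markers was highest (0.46), those of platelet and erythroid genes (-0.44) and class II presentation (-0.40) were lowest, and that of ribosomal proteins was -0.01.

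Of 17 tested genes of calcium-dependent kinases and Gq signalling 3 fell and Phkg1 rose, 9 differences were positive and 8 negative, and the median was 0.00. Over all genes tested 0.427% were called. The lists were chosen with earlier results of these data known, so this list's share of calls is no test. Ptprg, a receptor tyrosine phosphatase, read 5.95, 6.46, 6.58 and 5.70 in the knockout, against 6.75 to 7.38 in the wild type (log2 difference -0.96 ± 0.18, limma adjusted p = 0.0491). Camk1d, a calcium and calmodulin-dependent kinase, read 4.88, 5.14, 4.90 and 5.17 in the knockout, against 5.35 to 6.31 in the wild type (log2 difference -0.94 ± 0.18, limma adjusted p = 0.0474). Gna14, a G protein alpha subunit of the Gq family, read 5.49, 4.80, 5.37 and 5.33 in the knockout, against 5.86 to 6.52 in the wild type (log2 difference -0.90 ± 0.16, limma adjusted p = 0.0417). A second Gna14 probe set, also tested, differed by -0.03, so the probe sets disagree. Skil, a repressor of TGF-beta signalling, read 9.09, 9.13, 9.16 and 8.91 in the knockout, against 9.50 to 9.85 in the wild type (log2 difference -0.61 ± 0.10, limma adjusted p = 0.0393). It was the 1 call among 23 tested TGF-beta and BMP genes (median -0.06). Among the 23, 2 were higher and 2 lower at an unadjusted p under 0.05, beside 7.65% and 10.6% of all genes tested.

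Cell cycle and division genes were among the falls. Ccnd1, cyclin D1, which carries cells through G1, read 7.50, 7.73, 7.97 and 7.81 in the knockout, against a lowest of 8.19, a median of 8.70 and a highest of 9.06 in the wild type. The fall was 1.92-fold (log2 difference -0.94 ± 0.16, limma adjusted p = 0.0417), and its other 2 probe sets were lower too, at -0.86 and -0.74. Of 18 tested cell cycle genes Ccnd1 was the 1 called, and the median was -0.13. At an unadjusted p under 0.05, 6 of the 18 were lower and 1 higher, beside 10.6% and 7.65% of all genes tested. Pcna, the replication clamp, differed by -0.37 ± 0.12 and Cdkn1a, the inhibitor p21, by -0.70 ± 0.18. Outside the list, Haus6, of the complex that seeds spindle microtubules, fell with a difference of -0.78 ± 0.12 (limma adjusted p = 0.0393), but 1 of 4 knockout arrays was above the 40th percentile and the knockout mean was 0.22 below it. Mis12, a kinetochore protein, read 5.32, 5.30, 5.35 and 5.32 in the knockout, against 5.79 to 6.35 in the wild type (limma adjusted p = 0.0417).

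The other falls were in metabolism and RNA or protein handling. Cox5a, a subunit of cytochrome c oxidase, read 8.02, 7.87, 7.91 and 8.15 in the knockout, against 8.33 to 8.77 in the wild type (log2 difference -0.60 ± 0.11, limma adjusted p = 0.0417), and its other 2 probe sets differed by -0.45 and -0.41. It was the 1 call of 33 tested oxidative phosphorylation genes, of which 26 were lower, with a median of -0.11. At an unadjusted p under 0.05, 8 of the 33 were lower, beside 10.6% of all genes tested. Adk, adenosine kinase, which sets adenosine levels, differed by -0.73 ± 0.13, and Cp, the copper oxidase ceruloplasmin, by -0.86 ± 0.15 (limma adjusted p = 0.0417 for both). The other 2 probe sets of Adk differed by -0.48 and, below the level filter, by 0.05. Apobec1, which edits the apolipoprotein B transcript, read 7.40, 7.00, 7.11 and 6.99 in the knockout, against 7.63 to 8.43 in the wild type (log2 difference -0.84 ± 0.15). Edem3, which directs misfolded glycoproteins to degradation, differed by -0.58 ± 0.10, Tasor2 by -0.84 ± 0.13, Tmem45a by -0.76 ± 0.13 and Rida, a deaminase of reactive imines, by -0.74 ± 0.13. Rida passed the filter through the wild type, since 0 of 4 knockout arrays were above the 40th percentile and the knockout mean of 4.08 was 0.62 below it. Of 28 tested cytosolic ribosomal proteins none was called and the median was -0.01.

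Beyond the calls, 345 tested genes had groups that did not overlap, 131 higher and 214 lower. The largest of these differences on the higher side was in Rgs4, a brake on G protein signalling, at 8.66, 8.83, 8.58 and 8.97 in the knockout against 6.82 to 8.52 in the wild type (1.22 ± 0.28, limma adjusted p = 0.0828). Kcnma1, the BK potassium channel of smooth muscle, followed at 1.18 ± 0.27, with 7.33 on wild-type replicate 12 and 5.81 to 6.73 on the other wild-type arrays. Hoxb5, a homeobox factor, was at 8.45, 8.18, 8.43 and 8.41 in the knockout and at 6.21 to 7.61 in the wild type (1.11 ± 0.24, limma adjusted p = 0.0790). On the lower side after H2-Ab1 came Carmil1, a regulator of actin capping, at -1.02 ± 0.26, and Igf2, a growth factor of early life, at -0.98 ± 0.20 (limma adjusted p = 0.0665). The Carmil1 knockout mean was 0.20 below the 40th percentile, with 2 of 4 knockout arrays above it. Plvap, the diaphragm protein of endothelial fenestrae and caveolae, was at 7.62, 7.58, 7.69 and 7.81 in the knockout, against 8.08 to 9.01 in the wild type (-0.82 ± 0.19, limma adjusted p = 0.0828).

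Marker genes of some other cell types had overlapping groups. Upk3b, a mesothelial gene, was at 9.25, 4.44, 9.13 and 7.79 in the knockout, against a lowest of 3.43, a median of 6.68 and a highest of 10.18 in the wild type. Lyz2, lysozyme of macrophages, spanned 6.56 to 8.35 in the knockout and 6.93 to 7.86 in the wild type. The Y-linked gene Eif2s3y was at 8.38 to 8.93 in the knockout and 8.38 to 8.96 in the wild type, and Xist was below the 40th percentile on all 10 arrays, so the groups overlapped in these sex-linked marks.

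The calls depended on single arrays. Leaving out knockout replicates 3, 4, 5 and 6 in turn left 1, 4, 1 and 2 calls, and leaving out wild-type replicates 7, 8, 12, 13, 14 and 15 left 1, 4, 68, 1, 25 and 47. Nectin2 was called in all 10 of these fits, and each of the other 30 genes in 0 to 5 of them, with Tnnt2 in none and Lamc1 and Haus6 in 5. All 31 kept their sign in all 10. Without wild-type replicate 12 the 68 calls were 36 higher and 32 lower and held 30 of the 31 genes. Added to them were, among the genes taken by the naming rule, Rgs4, Kcnma1, Cnn1, Col6a3 and Septin6, a septin of the cytoskeleton, on the higher side, and H2-Ab1, Cd74 (the class II invariant chain), Igf2, Pf4, Plvap and Pfkfb3 (a regulator of glycolysis) on the lower. The medians of 30 of the 43 lists kept their sign in all 10 fits. That of the leukocyte adhesion molecules was -0.29 without knockout replicate 5, -0.03 without knockout replicate 6 and -0.08 without wild-type replicate 12. That of the platelet and erythroid genes was between -0.72, without knockout replicate 3, and -0.33, without wild-type replicate 13, and that of the smooth muscle markers between 0.33 and 0.53. The integrin list's median was 0.11 without wild-type replicate 12, and the elastic matrix list's was 0.01 without knockout replicate 6 and 0.23 without wild-type replicate 12. Correlations between arrays over the genes were 0.985 to 0.988 between knockout arrays, 0.979 to 0.991 between wild-type arrays and 0.980 to 0.986 across the groups.

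**Figure D5:**
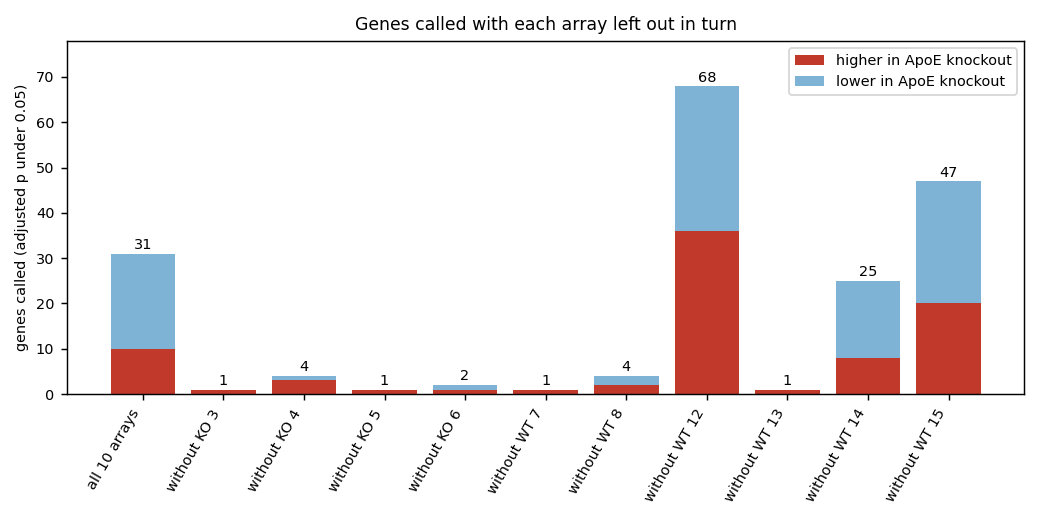
Number of genes called (adjusted p under 0.05, limma) with all 10 arrays and with each array left out in turn, split into genes higher (red) and lower (blue) in ApoE knockout. The count is 1 to 4 without any knockout array or without wild-type replicates 7, 8 or 13, and 68 without wild-type replicate 12.

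The 31 genes were then looked up in the incubated arrays, which share no array with the comparison of genotypes. The 3 stimuli share the medium arrays, so they are not compared with each other. The background was 9.05% of 7550 genes called with LPS, 2.81% with oxLDL and 21.3% with oxPAPC. Of the 30 genes that could be tested there, 5 were called with LPS, 3 with oxLDL and 14 with oxPAPC.

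Abcg1, higher in the knockout intima, was lower after LPS (log2 difference against medium -1.04, limma adjusted p = 0.0341) and after oxPAPC (-1.32, limma adjusted p = 0.00701), and differed by 0.07 after oxLDL. Idi1, lower in the knockout, was higher after oxPAPC by 1.59, with -0.03 after LPS and 0.37 after oxLDL. Cp had called differences of -1.68 for LPS, -0.88 for oxLDL and -1.62 for oxPAPC, and Apobec1 of -1.11, -1.09 and -1.09 in the same order; the 3 values of a gene rest on the same medium arrays and are not independent. Camk1d differed by -0.64, -1.38 and -0.77, of which the last 2 were called. Lamc1 rose with LPS (0.70) and with oxPAPC (0.65), and its difference with oxLDL was 0.34. Thbd fell with oxPAPC (-0.49), and its differences of -0.16 after LPS and 0.16 after oxLDL were not called. Nectin2 was not called with any of them, at -0.65, -0.28 and -0.10. These arrays came from wild-type aortas in culture medium for 4 h, whereas the genotype comparison used tissue with no incubation, so the values stand side by side only.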

How the data were processed

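The RNA of scraped aortic intima was measured on Affymetrix arrays, and the deposited table gives log2 values that the authors made by RMA (affy package), per the labels' protocols and the submitters' processing notes, with versions not given in the sources used here. RMA scales the arrays to a common distribution, so a global shift in RNA would not show. The deposited values kept a small offset, with array medians of 5.38 to 5.39 in the knockout and 5.35 to 5.37 in the wild type. Centring on the median of all probe sets gave 33 calls in place of 31. Centring on that of the genes tested, chosen after seeing the data, gave 15. The table has 22626 probe sets, of which 18003 carry 1 gene symbol, 287 several and 4336 none in the platform annotation, and 17977 were matched to RefSeq by gene ID.

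For each of 11807 genes 1 probe set was kept, that of highest mean level on the 22 arrays. Genes above the 40th percentile of their array on at least 4 of the 10 arrays (3 of 12 for the incubated arrays) were tested with lmFit and eBayes of limma 3.58.1 in R 4.3.3. Tests were two-sided, p-values were adjusted by Benjamini and Hochberg's method across every tested gene, and a gene was called at 0.05. Apoe, below the filter, had an exact permutation test. The fit was tested on simulated data, with noise drawn independently for each gene and array. It recovered 31.9% of changes of 0.5 on the log2 scale, 89.5% of changes of 1 and 100% of changes of 2. Of its 149 calls 4 were false. Variation shared between genes on an array was not simulated, so the result does not cover the dependence of the calls on single arrays. The number of arrays, 4 and 6, limits the precision.

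Members and gene lists were chosen with earlier results of these data known. The 43 lists had 932 entries, 801 with a probe set. Genes named are Apoe and its 3 nearest neighbours on either side, all called genes, the 10 largest rises and 10 largest falls among uncalled genes whose groups do not overlap, and in each list the first 4 members with a probe set, called members and the 3 with the smallest p. Alternatives changed the scaling, the filter, the probe set rule, the variance model, the arrays in the fit and the covariates, and left out each array in turn. Promoters were found for 25 of the 31 called genes.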

Additional observations from a re-analysis of the deposited data

Results flagged for a closer look

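Single arrays stood far from the rest of their group in 20 of the 288 group and gene combinations examined (6.94%, where chance gives about 5%). Wild-type replicate 12 was low for Ppbp (4.08), Cdh5 (8.67) and Gja5 (8.16), and high for Col3a1 (11.78) and Col6a3 (8.57). Wild-type replicate 14 was low for Adk (7.00) and Thbd (10.02), and high for Mvk (6.04), Gbp2 (9.94) and Itgb3 (6.89). Wild-type replicate 8 was low for Tasor2 (6.06), and wild-type replicate 15 for Hoxb5 (6.21). Knockout replicate 3 was low for H2-M3 (6.71) and Pf4 (4.28) and high for Rgs5 (10.51), a gene of pericytes and smooth muscle. Knockout replicate 4 was low for Hoxb5 (8.18), and knockout replicate 5 was high for Scd1 (9.41). Knockout replicate 6 was low for Cuedc1 (6.49) and Serpina1b (3.37) and high for Il6 (2.74), which lies below the level filter.

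Probe sets with no gene symbol or with several were left out of the comparison. When all probe sets were tested together, 7 of the 2840 such probe sets that passed the level filter differed at an adjusted p under 0.05 in limma, 3 higher and 4 lower in the knockout.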

How the results depend on the processing

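For the differences of 125 tested genes taken by the naming rule, 2429 of 2865 values under an alternative kept direction and side of the threshold. Most of these genes were uncalled at the start and stayed so. Another 344 values lost a call, all of them among the 31 called genes. The 31 calls became 6 with no level filter, 72 with array weights, 94 with all 22 arrays in 1 fit, 1 with smooth muscle markers or with Y-linked genes as a covariate, and 1 to 68 with 1 array left out. Chosen after seeing the data, centring on the median of the genes tested gave 15 and leaving out wild-type replicates 12 and 14 together gave 155. The genes called in the incubated arrays were 236 to 374 with 1 array left out for LPS against medium, 23 to 269 for oxLDL against medium and 735 to 1999 for oxPAPC against medium.

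The differences that changed sign were all uncalled. With the smooth muscle covariate the difference of Klf2 was 0.61, of Klf4 0.20, of Nos3 0.34, of Procr 0.16, of Col1a1 -0.021, of Acta2 -0.048 and of Myocd -0.13. With cyclic loess the difference of Klf2 was 0.024, of Nos3 0.020 and of Procr 0.034, and with centring on the median of the genes tested these were 0.011, 0.017 and 0.025. The difference of Klf2 was 0.029 with array weights and 0.013 with Y-linked genes as a covariate. With 1 array left out the difference of Klf2 was -0.28 to 0.17, of Klf4 -0.16 to 0.0037, of Nos3 -0.18 to 0.085, the difference of Procr -0.0522 to 0.034 and of Sele -0.48 to 0.0057. The cause of these shifts was not tested.

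No paired analysis was possible because knockout and wild type share no replicate number, and each stimulus shares at most 1 with medium. The depth of array data is limited by the number of arrays and by signal near background, where Apoe, Ccl2, Il6 and Sqle lay.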
